A study of Mus musculus with 9 samples.

Results

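The genes described here are those of the kidney nephron, the filtering unit of the adult kidney, as they were measured in fetal ovaries grafted under the kidney capsule. They are 44 genes that were chosen from a list of nephron markers with the day 20 values of these arrays already known, and 43 of them had a probe set annotated to that gene alone, out of 18194 such genes in all. Ggt1, the gamma-glutamyltransferase of the tubule brush border, had none and is not described further. For the 22 members with several probe sets, the one with the highest mean over the 9 arrays was used. That mean includes the day 20 arrays, so the rule can favour a probe set that is high on either of them. By segment, 28 members belong to the proximal tubule, 4 to the loop of Henle, 4 to the distal tubule, 2 to the collecting duct and 1 to the glomerulus, and 4 are found in several segments or have no fixed segment here.

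RNA was measured on 9 Affymetrix mouse arrays, which read each transcript through sets of short probes near its 3' end. XX ovaries of E13.0, freed of the mesonephros, were examined before transplantation (day 0, 2 arrays) or as grafts recovered from beneath the kidney capsule of young adult male (XY) nude mice of the BALB/c nu/nu strain, on day 4 (1 array), day 7 (1 array), day 10 (2 arrays), day 15 (1 array) or day 20 (2 arrays). All ovaries, ungrafted ones included, came from pregnant wild-type females treated with busulfan, an alkylating drug that removes germ cells, and no group of untreated ovaries was used. The paper names C57BL/6 and ICR females, whereas the labels name ICR only. Each graft array held a pool of approximately 10 grafts. The labels call the duplicates biological replicates, but which litters and hosts went into a pool is not stated. The p-values therefore reflect the scatter among pools alone, which may be technical. No array of kidney tissue and no graft in a female host was analysed here.

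Blood is filtered in the glomerulus, where podocytes joined by slit diaphragms hold back protein. The proximal tubule then takes back most of the filtered phosphate, glucose, amino acids and small proteins and secretes organic anions, and it is also a site of gluconeogenesis and fatty acid activation. The loop of Henle dilutes the urine, the distal tubule adjusts sodium and calcium, and the collecting duct sets water and acid balance under vasopressin and aldosterone. Most of the cortex beneath the kidney capsule consists of proximal tubules, and in mice several proximal tubule genes, Kap among them, respond to androgen.

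All values are log2 intensities, so that a difference of 1 is a 2-fold difference. They carry no call of signal over background. A level under 4.82 (the lower quartile of all values) was regarded as near background. Precision is limited by the number of arrays. The array medians lay between 6.49 and 6.63. The SD of the replicate difference, taken across the whole array, was 0.447 on day 0, 0.343 on day 10 and 0.697 on day 20, so that the day 20 duplicates were the least alike. Because these are bulk samples, fewer cells of a type and less RNA per cell cannot be told apart.

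The kidney genes were far higher on 1 array than on any other. Day 20 replicate 1 was the highest of the 9 arrays for 43 of 43 members, against 13.9% of all probe sets. It lay more than 2-fold above every other array for 38 members, where 2.04% of all probe sets did so. Between the day 20 arrays, the median difference over members (replicate 1 minus replicate 2) was 4.43, with 40 of 43 members past 2-fold, whereas the median over all probe sets was -0.03 and 4.06% were past 2-fold in this direction. Of the 100 probe sets with the largest difference between the day 20 arrays, 27 were annotated to members and 13 to other nephron genes. These differences are given as a description with no test, since the members were chosen with them in view. The 5 members that did not stand 2-fold above every other array were Nphs1, Ass1, Cldn16, Calb1 and Aqp2, at 0.02 to 0.83 above the next array.

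**Figure D1:**
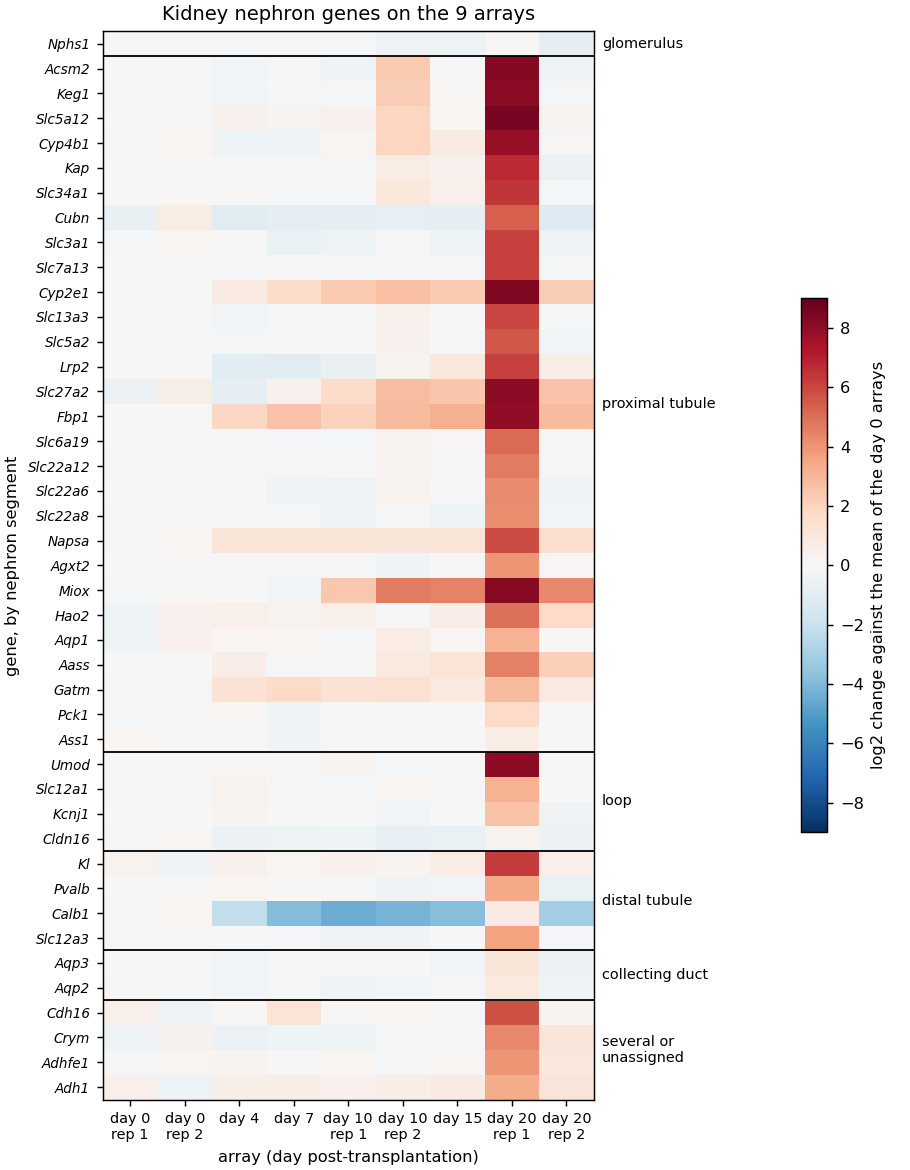
Change of each of the 43 kidney nephron genes on each of the 9 arrays against the mean of the day 0 arrays (colour, log2 scale), with genes in rows grouped by nephron segment and arrays in columns by day post-transplantation. Day 20 replicate 1 is the one column in which nearly all rows are red, Calb1 is blue on the other 6 graft arrays, and Fbp1, Cyp2e1, Napsa and Gatm are red from day 4.

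On day 20, the difference between the 2 arrays varied in size by segment. All members were higher on replicate 1, a direction that was known when they were chosen. The median difference was 5.30 for the proximal tubule (0.66 to 8.72, 27 of 28 past 2-fold), 3.95 for the distal tubule (3.79 to 5.85, 4 of 4), 2.95 for the loop (0.87 to 7.91, 3 of 4), 1.44 for the collecting duct (1.26 to 1.61, 2 of 2) and 0.90 for the glomerular gene Nphs1. Against the day 0 mean, the members of replicate 1 had a median change of 5.92 in the proximal tubule, 3.54 in the distal tubule, 2.82 in the loop and 0.98 in the collecting duct. On replicate 2, the same medians were 0.01, -0.38, -0.13 and -0.45, and the median over all members was 0.00. Not every member was level there. On replicate 2, 10 of 43 members were more than 2-fold above the day 0 mean, Miox the most at 4.36, and 2 were more than 2-fold below. Of all 45101 probe sets, 3432 were above and 1628 below by that measure. The choice of probe set can enlarge these differences. With the mean of all probe sets of a gene, the median differences were 4.07 (proximal tubule), 2.97 (distal tubule), 1.72 (loop) and 1.19 (collecting duct). The segments hold few genes outside the proximal tubule, and probes differ in their response, so that the order of the medians was not put to a test.

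**Figure D2:**
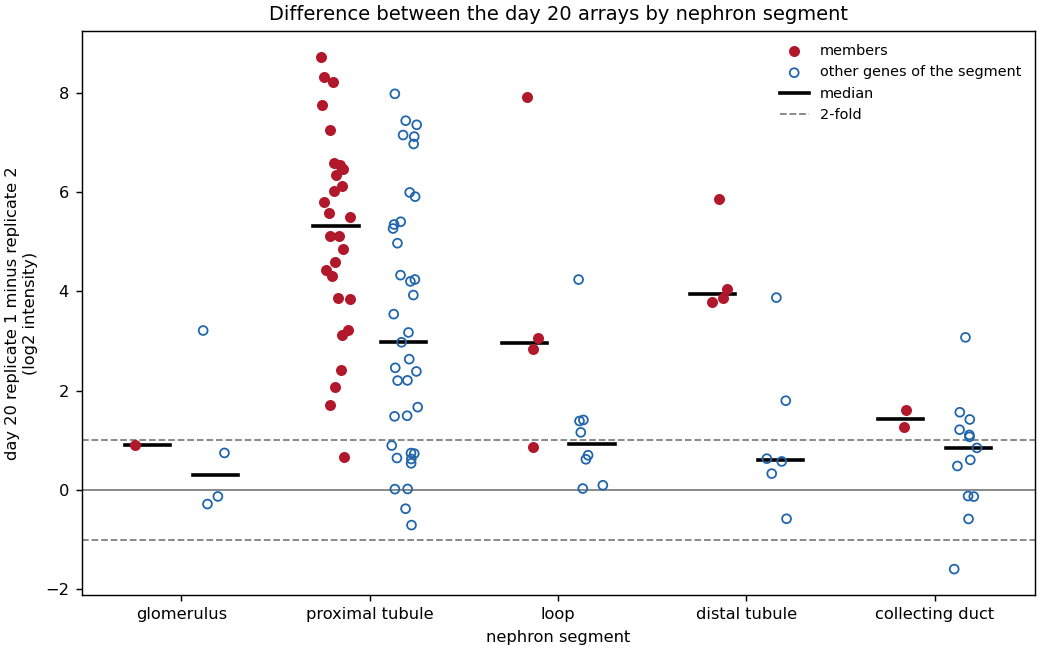
Difference between the day 20 arrays (replicate 1 minus replicate 2, log2 intensity) for each gene, by nephron segment, with members as filled points, other genes of the segment as open points, medians as bars and 2-fold as dashed lines. The proximal tubule members have the highest median (5.30), and in each segment the median of the other genes lies below that of the members.

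Of the 28 proximal tubule members, the 8 with the largest difference between the day 20 arrays were Acsm2, Keg1, Slc5a12, Cyp4b1, Kap, Slc34a1, Cubn and Slc3a1. Acsm2, a mitochondrial medium-chain acyl-CoA synthetase, measured 5.74 and 5.70 on day 0, 5.50 on day 4, 5.59 on day 7, 5.35 and 8.06 on day 10, 5.76 on day 15, and 14.00 and 5.28 on day 20 (replicates 1 and 2 in this order, here and below). Its level on day 20 replicate 1 was 421-fold that of replicate 2, and the next highest array was day 10 replicate 2. Its 3 other probe sets differed by 1.77 to 10.09 between the day 20 arrays. Keg1, a kidney-expressed relative of glycine N-acyltransferase, was at 4.10 and 4.25 on day 0, 3.92 on day 4, 4.18 on day 7, 4.06 and 6.37 on day 10, 4.25 on day 15, and 12.30 and 3.99 on day 20. The same 2 arrays stood out, and the other 7 lay under 4.82, close to background. Slc5a12, a sodium-coupled lactate transporter of the brush border, had 3.62 and 3.73 on day 0, 4.07 on day 4, 3.90 on day 7, 4.04 and 5.61 on day 10, 3.84 on day 15, and 12.21 and 3.99 on day 20. Here too day 20 replicate 1 was followed by day 10 replicate 2, with the remaining arrays near background.

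Cyp4b1, a cytochrome P450 that is androgen-responsive in mouse kidney, gave 5.78 and 6.07 on day 0, 5.50 on day 4, 5.62 on day 7, 6.07 and 7.83 on day 10, 6.68 on day 15, and 13.77 and 6.02 on day 20. Its 2 highest arrays were again day 20 replicate 1 and day 10 replicate 2, and the other day 20 array was within the range of the day 0 arrays. Kap, the kidney androgen-regulated protein, gave 6.95 and 6.95 on day 0, 6.87 on day 4, 6.85 on day 7, 6.76 and 7.60 on day 10, 7.30 on day 15, and 13.69 and 6.44 on day 20. Day 20 replicate 1 was 152-fold above replicate 2, which was the lowest of the 9 arrays. The other probe set of Kap differed by 10.17 between the day 20 arrays, with replicate 2 near background at 3.89, and measured 3.92 and 8.76 on day 10, so that the size of the difference depended on the probe set. Slc34a1, the sodium phosphate cotransporter that recovers filtered phosphate, had 5.004 and 5.11 on day 0, 5.17 on day 4, 4.85 on day 7, 4.97 and 6.002 on day 10, 5.48 on day 15, and 11.52 and 4.93 on day 20. All arrays other than day 20 replicate 1 were within 1.15 of each other, the highest of them being day 10 replicate 2.

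Cubn, the endocytic receptor cubilin, was at 5.12 and 6.46 on day 0, 4.86 on day 4, 4.93 on day 7, 5.02 and 5.06 on day 10, 4.92 on day 15, and 11.16 and 4.62 on day 20. Apart from day 20 replicate 1, its highest array was an ungrafted one, and the other 6 graft arrays lay below both day 0 arrays. Slc3a1, the heavy chain of the cystine and dibasic amino acid transporter, was at 4.82 and 5.18 on day 0, 4.99 on day 4, 4.42 on day 7, 4.51 and 4.96 on day 10, 4.57 on day 15, and 11.15 and 4.68 on day 20. No array but day 20 replicate 1 exceeded the day 0 range. Lrp2, the endocytic partner megalin, differed by 5.57 between the day 20 arrays and ranged from 4.95 to 6.92 on the others.

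The other transporters of the proximal tubule were close to flat outside 1 array. Slc22a6 and Slc22a8, the organic anion transporters OAT1 and OAT3, differed by 4.59 and 4.43 between the day 20 arrays, and Slc22a12, the urate transporter, by 4.85. Slc5a2, the glucose transporter SGLT2, differed by 5.80, Slc7a13, a cystine and aspartate carrier, by 6.35, Slc13a3, a dicarboxylate carrier, by 6.02 and Slc6a19, a neutral amino acid carrier, by 5.11. On the 8 other arrays each of these 7 genes spanned less than 1, from 0.25 for Slc7a13 to 0.73 for Slc22a6. Aqp1, the water channel of the proximal tubule and thin limb that endothelium also carries, differed by 3.12 and ranged from 7.49 to 8.57 on the others. The probe sets of 6 members, Slc22a12, Slc5a2, Lrp2, Cubn, Pck1 and Adhfe1, have names that mark probes shared by several transcripts, and that of Slc13a3 has 1 that marks possible cross-hybridisation.

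The 3 proximal tubule members with the smallest difference were Ass1, Pck1 and Gatm. Ass1, the argininosuccinate synthase of arginine synthesis, was measured at 4.85 and 4.53 on day 0, 4.50 on day 4, 4.40 on day 7, 4.82 and 4.64 on day 10, 4.49 on day 15, and 5.37 and 4.71 on day 20. Its day 20 arrays differed by 0.66, and all arrays other than day 20 replicate 1 stayed at or below 4.85. These levels are near or under the background limit of 4.82, so the size of its difference is uncertain. Pck1, the gluconeogenic phosphoenolpyruvate carboxykinase, was measured at 4.00 and 4.19 on day 0, 4.17 on day 4, 3.74 on day 7, 3.94 and 3.98 on day 10, 4.14 on day 15, and 5.83 and 4.13 on day 20. Its level was close to background on all arrays but 1, and the probe sets of this gene disagreed, with another differing by 6.59 and the other by -0.09 between the day 20 arrays. Gatm, the first enzyme of creatine synthesis, was measured at 9.41 and 9.21 on day 0, 10.61 on day 4, 11.02 on day 7, 10.64 and 10.69 on day 10, 10.17 on day 15, and 12.19 and 10.12 on day 20. Its small difference goes with a high level on every graft array.

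Where a member had further probe sets, most of them showed the same difference. Of 33 other probe sets of 22 members, 23 were more than 2-fold higher on day 20 replicate 1 than on replicate 2 and 0 were more than 2-fold lower, and 19 of the 22 genes had at least 1 such probe set. For 7 members, Slc5a12, Pck1, Agxt2, Keg1, Umod, Slc12a1 and Kl, both day 0 arrays were under 4.82, so that the size of their change is uncertain. That was so for 22.2% of all probe sets.

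Since the proximal tubule members moved together on 1 array, the 250 bases before the start of their genes were searched on both strands for short motifs of factors known in this segment. The sequences are those of RefSeq on GRCm38.p6, and 35 of the 43 members had one. GTTAAT or its reverse complement ATTAAC, the half-site of HNF1, a homeodomain factor of the proximal tubule and liver, was present in 8 of 35 members and in 7.49% of all 27025 genes with a promoter sequence (6.43% of their 32851 promoters). It was found in 7 of 24 proximal tubule members (Acsm2, Hao2, Miox, Pck1, Slc22a6, Slc22a8 and Slc34a1), in 1 of 4 loop members (Umod), in 0 of 3 distal tubule members and in 0 of 2 collecting duct members. CAAAGTCCA or TGGACTTTG, a site of HNF4A, was in 2 members, Agxt2 and Slc3a1, and in 0.451% of all genes (0.384% of promoters). AGAACA or TGTTCT, the half-site of the androgen receptor, was in 8 of 35 members, near the 18.2% of all genes (16.1% of promoters). It was in 3 of 24 proximal tubule members (Cyp4b1, Slc34a1 and Slc6a19), a share below that of all genes. The others were 2 of 4 loop members (Cldn16 and Kcnj1), 1 of 3 distal tubule members (Kl), 1 of 2 collecting duct members (Aqp2) and Adh1. A match is a description of the letters and shows no binding. To show where the half-site lies, 4 promoters are printed 5' to 3' for the member with the largest difference between the day 20 arrays (Acsm2), a member that was also high on later graft arrays (Miox), the phosphate transporter with 2 matches (Slc34a1) and the loop gene (Umod), with each half-site in capitals. They lie at chr7:119554090-119554339 (plus strand), chr15:89334223-89334472 (plus strand), chr13:55399398-55399647 (plus strand) and chr7:119479263-119479512 (minus strand).
Acsm2: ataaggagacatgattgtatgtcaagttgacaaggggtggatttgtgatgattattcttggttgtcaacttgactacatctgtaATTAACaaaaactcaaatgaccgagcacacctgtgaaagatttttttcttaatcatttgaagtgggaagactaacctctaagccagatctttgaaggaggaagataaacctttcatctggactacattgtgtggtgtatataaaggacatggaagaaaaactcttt
Miox: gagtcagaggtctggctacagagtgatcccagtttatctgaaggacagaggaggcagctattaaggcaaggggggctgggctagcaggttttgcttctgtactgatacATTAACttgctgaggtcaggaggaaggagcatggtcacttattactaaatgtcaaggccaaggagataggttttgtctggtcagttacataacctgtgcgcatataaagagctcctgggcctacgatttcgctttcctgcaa
Slc34a1: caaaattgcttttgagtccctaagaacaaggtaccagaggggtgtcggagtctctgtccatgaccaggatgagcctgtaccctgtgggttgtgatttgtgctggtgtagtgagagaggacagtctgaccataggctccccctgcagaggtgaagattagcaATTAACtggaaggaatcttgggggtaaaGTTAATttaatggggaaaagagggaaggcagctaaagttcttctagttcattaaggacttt
Umod: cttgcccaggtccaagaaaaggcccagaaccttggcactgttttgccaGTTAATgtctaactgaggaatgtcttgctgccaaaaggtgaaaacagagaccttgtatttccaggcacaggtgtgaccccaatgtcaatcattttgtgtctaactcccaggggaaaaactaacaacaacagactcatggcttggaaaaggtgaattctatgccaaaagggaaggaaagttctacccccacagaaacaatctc
The half-site nearest to the start begins 61 bases before it in Slc34a1, whose other match begins 89 bases before it, against 142 in Miox, 166 in Acsm2 and 202 in Umod.

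In the thick ascending limb of the loop, Umod, which encodes uromodulin, the most abundant protein of normal urine, was measured at 3.59 and 3.75 on day 0, 3.78 on day 4, 3.76 on day 7, 3.93 and 3.57 on day 10, 3.74 on day 15, and 11.69 and 3.78 on day 20. Day 20 replicate 1 was 7.91 above replicate 2, a size that is uncertain because replicate 2 was near background, and the 8 other arrays were all close to background and within 0.36 of each other. Slc12a1, the sodium potassium chloride cotransporter NKCC2, was measured at 3.57 and 3.35 on day 0, 3.79 on day 4, 3.57 on day 7, 3.33 and 3.60 on day 10, 3.57 on day 15, and 6.56 and 3.50 on day 20. Kcnj1, the potassium channel ROMK, was measured at 5.21 and 5.23 on day 0, 5.45 on day 4, 5.21 on day 7, 5.21 and 4.96 on day 10, 5.20 on day 15, and 7.76 and 4.92 on day 20. Both were higher on day 20 replicate 1 alone, by 3.06 and 2.84 over replicate 2. Cldn16, a claudin of paracellular magnesium transport, had 4.87 and 5.29 on day 0, 4.54 on day 4, 4.59 on day 7, 4.68 and 4.33 on day 10, 4.47 on day 15, and 5.39 and 4.52 on day 20. It was the loop member with the smallest difference, and day 20 replicate 1 exceeded day 0 replicate 2 by only 0.10.

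In the distal tubule, Slc12a3, the thiazide-sensitive sodium chloride cotransporter, had 4.83 and 5.02 on day 0, 4.92 on day 4, 4.81 on day 7, 4.60 and 4.64 on day 10, 4.92 on day 15, and 8.58 and 4.79 on day 20. Pvalb, the calcium-binding protein parvalbumin, had 5.59 and 5.65 on day 0, 5.79 on day 4, 5.59 on day 7, 5.61 and 5.33 on day 10, 5.41 on day 15, and 9.04 and 4.99 on day 20. Kl, klotho, the coreceptor of FGF23, had 4.25 and 3.57 on day 0, 4.27 on day 4, 4.12 on day 7, 4.27 and 4.14 on day 10, 4.57 on day 15, and 10.23 and 4.38 on day 20. For these 3 genes day 20 replicate 1 stood alone, and every other array was within 1 of the day 0 mean. Calb1, the calcium-binding protein calbindin D28K, was measured at 10.51 and 10.87 on day 0, 8.48 on day 4, 6.80 on day 7, 6.24 and 6.49 on day 10, 6.83 on day 15, and 11.43 and 7.58 on day 20. Unlike in the other distal tubule members, both ungrafted arrays were nearly as high as day 20 replicate 1, and the other 6 graft arrays were all lower than day 0.

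In the collecting duct, Aqp2, the vasopressin-regulated water channel, was at 6.54 and 6.39 on day 0, 6.25 on day 4, 6.27 on day 7, 6.13 and 6.20 on day 10, 6.36 on day 15, and 7.37 and 6.11 on day 20. Aqp3, the basolateral water channel, was at 5.62 and 5.53 on day 0, 5.36 on day 4, 5.53 on day 7, 5.53 and 5.56 on day 10, 5.32 on day 15, and 6.64 and 5.03 on day 20. Both were highest on day 20 replicate 1 and lowest on replicate 2, a smaller contrast than in the tubule segments above. Nphs1, nephrin of the podocyte slit diaphragm and the only glomerular member, was at 5.90 and 6.12 on day 0, 5.84 on day 4, 5.84 on day 7, 5.84 and 5.59 on day 10, 5.59 on day 15, and 6.14 and 5.24 on day 20. Its day 20 replicate 1 value was 0.02 above the higher day 0 array, and its highest and lowest arrays were the 2 of day 20.

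Of the 4 members without a fixed segment, Cdh16, the kidney-specific cadherin of tubule epithelium, differed by 5.46 between the day 20 arrays, Crym, a thyroid hormone binding protein, by 3.20, Adhfe1, an alcohol dehydrogenase that oxidises hydroxybutyrate, by 2.96 and Adh1, the class I alcohol dehydrogenase, by 2.18. Crym, Adhfe1 and Adh1 were also 1.09, 1.04 and 1.18 above the day 0 mean on day 20 replicate 2, and Cdh16 was 0.25 above it. The remaining enzymes of the proximal tubule were not alike on replicate 2. Agxt2, a mitochondrial aminotransferase, differed by 3.86 and was 0.085 above the day 0 mean on replicate 2. It was near background, at 3.86 or less, on all arrays but day 20 replicate 1. Hao2, a peroxisomal hydroxyacid oxidase, differed by 3.21 and was 1.77 above the day 0 mean on replicate 2.

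Genes of the same segments that are not members were set beside them, and these lists too were drawn up with earlier results known. Of 37 other proximal tubule genes, 27 were more than 2-fold higher on day 20 replicate 1 than on replicate 2, with a median of 2.97, led by Glyat (7.97), an acyltransferase that conjugates glycine, G6pc (7.43), the glucose-6-phosphatase that ends gluconeogenesis, and Slc17a3 (7.35), an organic anion transporter. The medians were 0.93 for 8 other loop genes (4 past 2-fold, led by Egf at 4.23), 0.60 for 6 other distal tubule genes (2 past 2-fold, led by Tmem52b at 3.87), 0.85 for 13 other collecting duct genes (6 past 2-fold, led by Slc26a4, the exchanger pendrin, at 3.07) and 0.31 for 4 other glomerular genes (1 past 2-fold, Clic5 at 3.21). Slc26a7, a chloride and bicarbonate exchanger, went the other way, at -1.60. Of 5 regulators and junction genes of tubule epithelium, which other epithelia share, 4 were higher on replicate 1, with a median of 0.81, led by Pax8 (1.38) and Lhx1 (1.24), and Epcam was at -1.05.

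Among genes known to be higher in male than in female mouse kidney, 6 of 6 measured were more than 2-fold higher on day 20 replicate 1 than on replicate 2, with a median of 6.39. Of these, 3 are members (Kap, Slc7a13 and Cyp4b1), chosen with this difference known. The others were Cyp4a12a at 6.43, Cyp2j13 at 5.997 and Slco1a1, also counted among the other proximal tubule genes, at 4.32. By the same measure 27 of 28 proximal tubule members, 27 of 37 other proximal tubule genes and 4.06% of all probe sets were past 2-fold. The count therefore shows nothing particular to male-biased genes. Of 3 genes known to be higher in female kidney, Slc7a12 differed by 1.52, Cyp4a14 by 0.32 and Abcc3 by -0.76. Cyp4a14 was under 4.82 on all arrays, and Slc7a12 on all but day 20 replicate 1 (5.12). The hosts were male and no female host was analysed here, so a part of host sex was not tested.

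Some genes that mark other cells differed in level between the day 20 arrays as well. The Y-linked genes, which the hosts carry and the XX grafts do not, were higher on replicate 1 in 3 of 3, with a median of 1.92, and Eif2s3y measured 3.63 and 3.73 on day 0, 7.70 on day 4, 6.76 on day 7, 6.20 and 6.13 on day 10, 5.94 on day 15, and 8.71 and 6.50 on day 20. The 9 macrophage genes were all higher on replicate 1, by 0.08 to 1.25 with a median of 0.60. Of 9 pre-granulosa genes of the ovary, 8 were lower on replicate 1, with a median of -0.89 and a range of -1.50 to 0.01. The 5 genes of the adrenal cortex, an organ next to the kidney, had a median of -0.01 and none was past 2-fold. The part of any of these differences in those of the kidney genes was not tested.

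Day 10 also had a pair of arrays that differed in proximal tubule genes, at a smaller scale. Replicate 2 was above replicate 1 for 24 of 28 proximal tubule members, with a median difference of 0.46, and 7 of them were past 2-fold, where 1.82% of all probe sets were past 2-fold in this direction. These 7 were Acsm2 (2.72), Keg1 (2.31), Miox (2.24), Cyp4b1 (1.76), Slc5a12 (1.57), Slc27a2 (1.10) and Slc34a1 (1.03). The medians of the distal tubule (-0.05) and collecting duct (0.05) were near the -0.04 of all probe sets. That of the loop (-0.30) was lower, with 1 of 4 members higher on replicate 2. No member of these 3 segments was past 2-fold. Over all segments, 32 of 43 members were higher on replicate 2, against 40.6% of all probe sets. Of the other proximal tubule genes, 4 of 37 were past 2-fold, namely Pdzk1 (1.70), Glyat (1.54), Slc47a1 (1.47) and G6pc (1.18), which were named after their values were seen. With 1 array on each side, this difference has no test.

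Some of the members that differed most on day 20 also differed on day 10, and others did not. Of the 6 members more than 7 apart on day 20, 4 were more than 2-fold higher on day 10 replicate 2 (Acsm2, Keg1, Slc5a12 and Cyp4b1), whereas Umod was at -0.36. Next in order on day 20, Slc34a1 (6.59) was 1.03 higher on day 10 replicate 2. Cubn (6.53), Slc3a1 (6.47), Slc7a13 (6.35), Cyp2e1 (6.11) and Slc13a3 (6.02) were 0.05 to 0.46 higher there. Kap was 0.84 higher by the probe set used and 4.83 higher by its other one. Acsm2 also varied, from 0.00 to 4.19 over its 3 other probe sets. Across the 43 members, the 2 differences had a Pearson's r of 0.569, against 0.128 across all probe sets. This is a description across genes, which are not independent replicates and share the same 4 arrays. The members were also chosen with the day 20 difference known. On day 10 the Y-linked genes differed by a median of -0.07 (replicate 2 minus replicate 1), the macrophage genes by 0.25, the pre-granulosa genes by -0.28 and the adrenal genes by -0.12. Their part in the difference of the kidney genes was not tested.

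**Figure D3:**
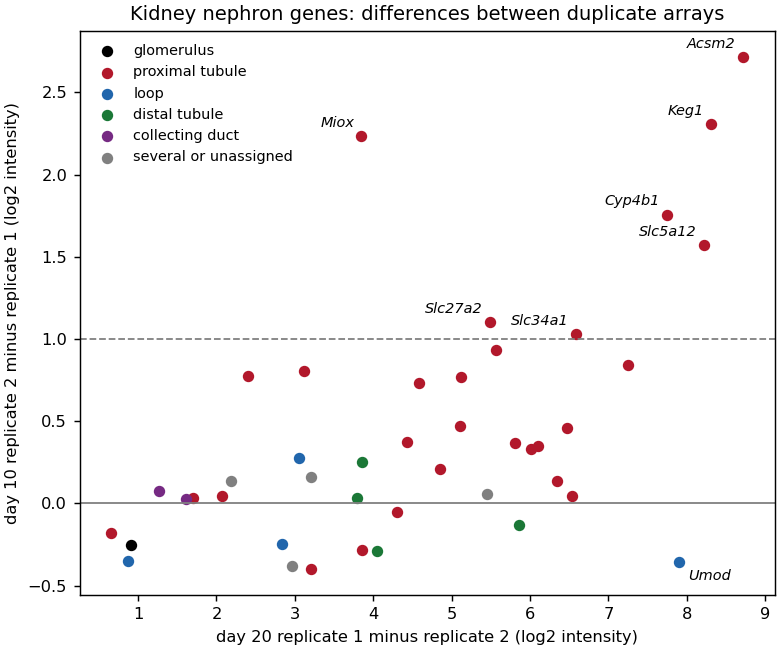
Difference between the day 10 arrays (replicate 2 minus replicate 1) against the difference between the day 20 arrays (replicate 1 minus replicate 2) for each of the 43 members, in log2 intensity, coloured by segment, with the dashed line at 2-fold. The 7 members above the line all belong to the proximal tubule, whereas Umod lies at 7.91 on the horizontal axis and at -0.36 on the vertical axis.

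Without day 20 replicate 1, the members fell into those that were level on all arrays and those that were not. Over the 8 other arrays 21 members spanned less than 1, as did 72.8% of all probe sets, and 22 spanned 1 or more. On all 6 other graft arrays, 5 members were above both day 0 arrays (Slc5a12, Fbp1, Gatm, Cyp2e1 and Napsa), where 12.3% of all probe sets were, and 5 were below both (Nphs1, Cubn, Cldn16, Calb1 and Aqp2), where 22.1% of all probe sets were. The share of members in either direction was therefore near or below that of the array as a whole. Genes that mark other cells also changed in level over the same arrays. The 9 macrophage genes were all more than 2-fold above the day 0 mean on each of the 7 graft arrays, with medians of 3.32 on day 4, 2.89 on day 7, 1.78 and 2.04 on day 10, 1.44 on day 15, and 3.24 and 2.32 on day 20. The 3 Y-linked genes were above it on each graft array as well, with medians from 0.90 to 2.94. Their part in the changes of the kidney genes from day 4 on was not tested.

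Each day was compared with day 0 by limma's moderated test over all 45101 probe sets, with Benjamini-Hochberg adjustment, and a gene was called where the adjusted p was under 0.05 with a difference over 2-fold. With all 9 arrays, 0 of 43 members were called on days 4, 7, 10 and 15, whereas 0.774%, 1.28%, 2.87% and 2.0% of all probe sets were called higher. At an unadjusted p under 0.05 there were 0 members on day 4, 1 on day 7 (Calb1) and 2 each on days 10 and 15 (Calb1 and Miox). The share of all probe sets at that threshold was not counted, here or below. No excess among the members can therefore be read from such counts. On day 20, Miox alone was called, beside 4.52% of all probe sets called higher, which is a description because the members were chosen with this comparison known. On that day 38 members were called higher without replicate 2 (6.97% of all probe sets), and without replicate 1, 4 were called higher and 1 lower (4.69% and 2.12%), which are descriptions as well. The spread in this test comes from the duplicate arrays of days 0, 10 and 20, and the difference between the day 20 arrays enters the error of every day.

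When day 20 replicate 1 was left out, 5 members were called on day 10, 4 of them higher and 1 lower, beside 3.93% and 2.14% of all probe sets. On day 15 there were 2 higher and 1 lower (3.47% and 1.81% of all probe sets), on day 7 there were 3 higher and 1 lower (2.22% and 0.823%), and on day 4 there were 0 higher and 1 lower (1.42% and 0.353%), with 5 members at an unadjusted p under 0.05 on day 4. The changes of days 4 to 15 are the same in both tests and only the error differs. The members were chosen with the difference between the day 20 arrays known. Leaving out that array therefore takes a difference seen beforehand out of their error. The 5 genes of day 10 were also the 5 called when only the arrays of days 0 and 10 were used. When day 10 replicate 2 was left out too, which was chosen after seeing the data, only the day 0 duplicates were left to give the spread. The calls of that fit therefore cannot decide whether a member changed. Its day 10 changes were 2.10 for Fbp1, 2.33 for Cyp2e1, 1.33 for Gatm, 1.135 for Napsa and -4.45 for Calb1.

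Fbp1, the fructose bisphosphatase of gluconeogenesis, measured 5.43 and 5.49 on day 0, 7.35 on day 4, 8.02 on day 7, 7.56 and 8.33 on day 10, 8.68 on day 15, and 13.41 and 8.30 on day 20. All 7 graft arrays were higher than both ungrafted arrays, and the level was already above them on day 4. Without day 20 replicate 1 it rose by 2.56 on day 7 (adjusted p = 0.0434 by limma), by 2.49 on day 10 (SE 0.28, adjusted p = 0.0191) and by 3.22 on day 15 (adjusted p = 0.0229), and with all arrays the adjusted p on day 10 was 0.423. Cyp2e1, a cytochrome P450 that oxidises small molecules such as ethanol, measured 5.21 and 5.07 on day 0, 5.96 on day 4, 6.82 on day 7, 7.46 and 7.82 on day 10, 7.46 on day 15, and 13.48 and 7.38 on day 20. Its grafts were above day 0 on every array, in the order day 4, day 7 and then days 10 to 20. Without day 20 replicate 1 it rose by 1.69 on day 7 (adjusted p = 0.0355 by limma), by 2.50 on day 10 (SE 0.17, adjusted p = 0.00815) and by 2.32 on day 15 (adjusted p = 0.0173), and with all arrays the adjusted p on day 10 was 0.494.

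Gatm, whose values are given above, was higher in all grafts and highest on day 7 among the arrays other than day 20 replicate 1. Without that array it rose by 1.71 on day 7 (adjusted p = 0.0222 by limma) and by 1.35 on day 10 (SE 0.13, adjusted p = 0.0149), and on day 15 the change was 0.86, with an adjusted p of 0.0627. With all arrays the adjusted p on day 10 was 0.302. Napsa, an aspartic protease of lysosomes, measured 5.72 and 6.06 on day 0, 7.03 on day 4, 7.07 on day 7, 7.02 and 6.97 on day 10, 7.03 on day 15, and 11.74 and 7.44 on day 20. Its 6 other graft arrays lay between 6.97 and 7.44, all above day 0. Its other probe set was near background, at 4.03 to 4.37, on all arrays but day 20 replicate 1 and did not show this rise. Without day 20 replicate 1 it rose by 1.11 on day 10 (SE 0.17, adjusted p = 0.032 by limma), and with all arrays the adjusted p was 0.678.

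Calb1 was the only member called lower. Without day 20 replicate 1 it fell by 2.21 on day 4 (adjusted p = 0.0342 by limma), by 3.89 on day 7 (adjusted p = 0.0103), by 4.33 on day 10 (SE 0.19, adjusted p = 0.00513) and by 3.86 on day 15 (adjusted p = 0.0105). With all arrays the change on day 10 was the same, with an SE of 1.16 and an adjusted p of 0.111. Its 3 other probe sets were also lower on both day 10 arrays than on both day 0 arrays, day 20 replicate 1 was above day 20 replicate 2 in each, and all 3 were near background in the grafts of day 10.

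Miox and Slc27a2 were higher late in the grafts and were not called on days 4 to 15. Miox, the myo-inositol oxygenase that opens the inositol ring, measured 5.43 and 5.58 on day 0, 5.44 on day 4, 5.25 on day 7, 7.96 and 10.19 on day 10, 10.00 on day 15, and 13.71 and 9.86 on day 20. It was at the day 0 level until day 7 and high on day 10 replicate 2, day 15 and both day 20 arrays. Its change on day 10 was 3.57 (SE 0.76, adjusted p = 0.064 by limma) without day 20 replicate 1 and had an adjusted p of 0.211 with all arrays. Slc27a2, a very long-chain acyl-CoA synthetase, measured 5.38 and 6.40 on day 0, 5.10 on day 4, 6.25 on day 7, 7.55 and 8.65 on day 10, 8.41 on day 15, and 13.93 and 8.44 on day 20. It was within or below the day 0 range on days 4 and 7 and was above it on the later arrays, with a change on day 10 of 2.21 (SE 0.52, adjusted p = 0.0764 by limma) without day 20 replicate 1. Aass, which begins lysine breakdown, measured 7.00 and 6.99 on day 0, 7.56 on day 4, 6.82 on day 7, 7.10 and 7.87 on day 10, 8.25 on day 15, and 11.54 and 9.14 on day 20. It was highest on days 15 and 20.

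**Figure D4:**
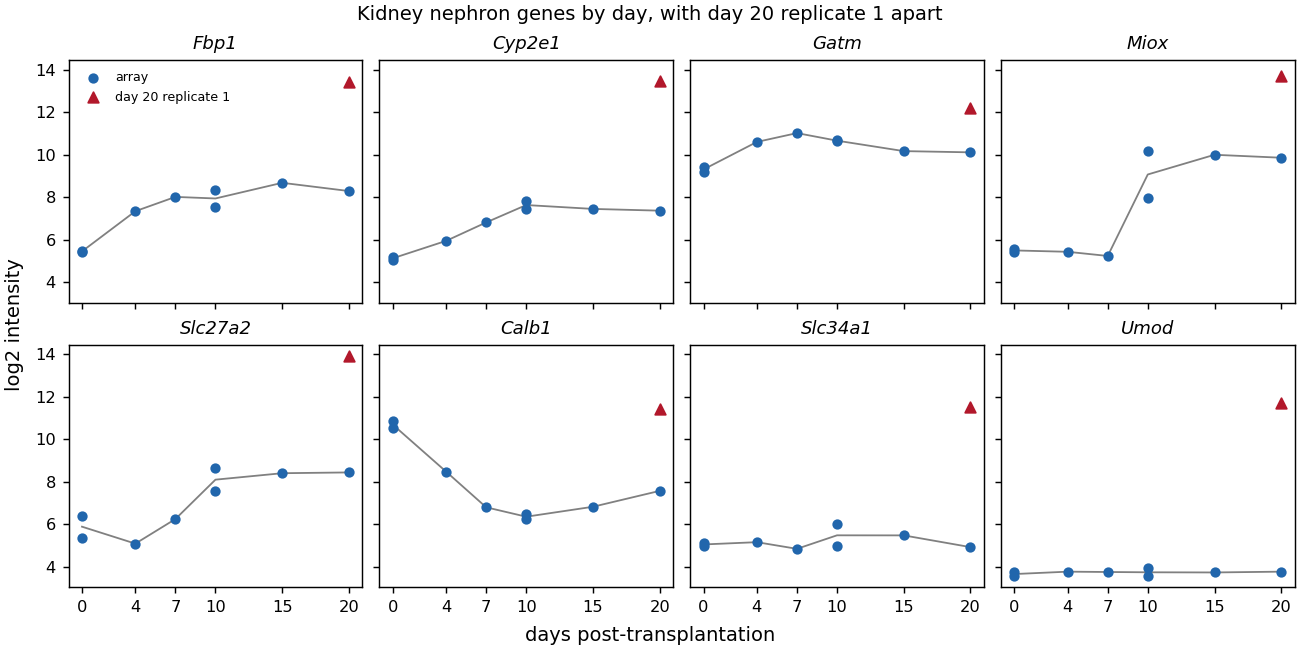
Log2 intensity of 8 members against days post-transplantation, with each array as a point, day 20 replicate 1 as a triangle, and a line through the mean of each day without that array. Fbp1, Cyp2e1 and Gatm lie above day 0 from day 4, Miox and Slc27a2 from day 10, Calb1 lies below day 0, and Slc34a1 and Umod are near the day 0 level except on day 20 replicate 1.

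Some other nephron genes were called in the grafts. Without day 20 replicate 1, where 3.93% of all probe sets were called higher and 2.14% lower on day 10, 4 of 37 other proximal tubule genes were called higher and 3 lower on day 10, as were 1 and 0 of 8 other loop genes, 1 and 0 of 6 other distal tubule genes, 3 and 0 of 13 other collecting duct genes, and 1 and 1 of 4 other glomerular genes. Examples are Slc26a7 of the collecting duct (4.75 higher by limma), Dpep1, a dipeptidase of the proximal tubule (3.37 higher), and Podxl of the podocyte, which was lower. Podxl was highest in the ungrafted ovaries (12.46 and 12.86) and was at 9.44 and 9.73 on day 20. Slc26a7 was at 11.12 and 12.71 on day 20, lower on replicate 1. The segment names are those of the kidney, and which cells held this RNA was not tested. Hnf4a, the nuclear receptor of the proximal tubule, measured 6.24 and 6.02 on day 0, 6.08 on day 4, 5.97 on day 7, 6.02 and 6.03 on day 10, 5.83 on day 15, and 10.92 and 5.66 on day 20, and was chosen for mention after its values were seen. It was above 6.24 on day 20 replicate 1 alone.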

How the data were processed

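RNA of 9 pooled samples was hybridised to Affymetrix mouse arrays after labelling with either of 2 kits, and the kit of each array is not stated. The deposited values are log2 intensities from the robust multiarray algorithm (software version not given in the sources at hand), a method that corrects background, normalizes arrays by quantiles and summarises each probe set. Probe sets were named from the platform annotation (34958 with 1 symbol, 932 with several and 9211 without an entry).

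A mean per day was fitted to all 45101 probe sets with limma 3.58.1 (lmFit and eBayes) in R 4.3.3, with 3 residual degrees of freedom and 2.69 prior degrees of freedom. Days 4, 7 and 15, with 1 array each, borrow the spread of the duplicates. The model was tested on simulated data. Further steps used pandas 2.3.3 and numpy 2.4.6 in Python 3.11.15, with matplotlib 3.10.9 for the plots.

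The members, segments and lists were chosen with earlier results of these data known. Values on every array are given for all members outside the proximal tubule that have a segment, for the 8 proximal tubule members with the largest and the 3 with the smallest difference between the day 20 arrays, and for those called on a day other than 20 or without day 20 replicate 1. Miox and Slc27a2 were added after their values were seen. Of each list, up to 3 genes with the largest difference were named, and others where the text says so or as examples of called genes. The alternatives tried were an intensity trend, array quality weights, renewed quantile normalization, centring on the median, a filter on dim probe sets, a floor at the 25th percentile, a fold threshold of 1.5, a replicate block, a fit of just the 2 days compared, the mean of all probe sets of a gene, and each duplicate array left out in turn.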

Additional observations from a re-analysis of the deposited data

How the results depend on the processing

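The counts rest on few arrays, and most depend on whether both day 20 arrays are used. On day 10 (0 members called), array quality weights gave 1 member, only the arrays of days 0 and 10 gave 5, and leaving out 1 array gave 0 to 5, the higher count without either day 20 array. Leaving out 1 array gave 0 to 3 members on day 15, 0 to 1 on day 4 and 0 to 4 on day 7, where 0 were called with all arrays, again with the higher count without either day 20 array. On day 20 (1 member called), the count was 2 with an intensity trend, with each array centred on its median, with only probe sets above the median (18 members tested) and with the mean of all probe sets of a gene. It was 0 with array quality weights, with values under 4.82 raised to it, and with only the arrays of days 0 and 20. A fit without both day 10 replicate 2 and day 20 replicate 1 was chosen after seeing the data. Its spread came from the day 0 duplicates alone, so its calls decide nothing. Leaving out 1 array gave 0 to 38 members on day 20, with 38 without replicate 2 (6.97% of all probe sets called higher), 5 without replicate 1 (4.69% higher and 2.12% lower) and 0 without any of the day 0 or day 10 arrays.

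Whether the replicate number pairs the arrays is not stated. The deviations of same-numbered arrays from their day means correlated at -0.158, 0.154 and -0.128. With so few duplicates, this cannot decide whether the arrays were paired. With the replicate block the count was 0 on day 20 and 0 on day 10.

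The median difference between the day 20 arrays was 4.07 in the proximal tubule, 1.72 in the loop and 2.97 in the distal tubule with the mean of all probe sets of a gene, and 2.29 in the loop with values under 4.82 raised to it. The other alternatives moved no segment's median by more than 0.343, the SD of the day 10 duplicate difference, and no result changed direction. The cause of these shifts was not tested.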
